A study of Mus musculus with 15 samples.

Results

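A set of 38 gene symbols known as interferon-stimulated genes was followed in the RNA of mouse cardiomyocytes carrying adeno-associated virus (AAV) vectors. The members were the rows of a deposited count table whose symbol stood on the list, whatever their values. Of the 38 symbols, 37 had a row among the 23337 genes of the table, and 34 of these had enough counts to be tested among 11814 tested genes. Ifi27 had no row of its own, and RefSeq gives the listed symbol Ifi27l1 as an older name of the gene now called Ifi27, so that both symbols name 1 gene. Zbp1, Irf5 and Ifitm1 were in the table but under the filter on low counts.

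The study compared 3 vectors with 5 libraries each: AAV-ATF4-2A-GFP (here ATF4), AAV-DDIT3-2A-GFP (here DDIT3) and the control AAV-GFP (here GFP). All 3 vectors were given on postnatal day 1 to Rosa-Cas9GFP mice, which carry the Cas9 nuclease and GFP at the Rosa26 locus. Heart cells were released by Langendorff perfusion of the heart with enzymes when the mice were 4 weeks old, and cardiomyocytes were purified by FACS before polyA RNA was sequenced. Thus all 15 libraries, controls included, came from animals that had received an AAV and carried Cas9 and GFP, and no library of an animal without a vector was analysed here. ATF4 and DDIT3 (also called CHOP) are transcription factors of the integrated stress response, and in these vectors a 2A peptide lets them be made from the same transcript as GFP. The promoter of the vectors, the number of animals behind a library and which libraries came from separate animals are not stated in the labels. The p-values therefore describe spread among these libraries, which may be technical in part. Every group held libraries read as male and as female from sex-linked genes, so no group came from a single animal.

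Interferon-stimulated genes are switched on when a cell senses foreign nucleic acid, through receptors such as RIG-I and MDA5, or when secreted interferon binds its receptor. The receptor's kinases activate transcription factors, among them STAT2, which with IRF9 binds the interferon-stimulated response element in promoters, and the products block virus entry, translation and replication or feed back on the pathway. In the heart these genes are studied in viral myocarditis and after gene delivery with virus vectors.

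Totals lay between 6217744 and 8317249 counts per library. Values are CPM, read counts scaled to a common library size with TMM factors, listed in the order of replicates 1 to 5, and errors of group means are SD over 5 libraries. Each targeted gene was highest in the group whose vector encodes it. Atf4 averaged 400 ± 79.5 CPM in ATF4, 66.5 ± 22.9 CPM in DDIT3 and 71.1 ± 12.2 CPM in GFP libraries, and Ddit3 averaged 29.5 ± 7.62 CPM in ATF4, 844 ± 180 CPM in DDIT3 and 15.6 ± 1.28 CPM in GFP libraries. All 10 cardiomyocyte markers were detected in every library, with summed levels of 89090 to 101800 CPM in ATF4, 112300 to 124100 CPM in DDIT3 and 108800 to 137300 CPM in GFP libraries. SMART-Seq3 is named in the label of GFP replicate 5 and SMART-Seq2 in the other 14, while the protocol text names SMART-Seq v4 for all 15, so that the kit of each library is uncertain. By sex-linked genes 4 libraries read as female, namely replicate 2 in both ATF4 and DDIT3 and replicates 4 and 5 in GFP, and the other 11 as male. The first principal component (54.4% of the variance) separated the ATF4 libraries from the other 10, and on the second (11.4%) ATF4 replicate 2 and DDIT3 replicate 2 lay farthest up, at 40.6 and 35.2.

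In the cell, STAT and IRF proteins act on these genes at the promoter. RefSeq's promoter table (GRCm38.p6) had an entry for 29 of the 37 members and for 8 of the 9 that rose in ATF4 against GFP. The 5 of those 9 with a single start in the table are shown here, 100 bases up to the start, 5′ to 3′ in the direction of the gene, as examples of the called members; Irf1, Irf8 and Adar have several starts, and Ifi27l1 has no entry. The capital marks the first transcribed base.
Isg15, chr4:156200818-156200918, minus strand: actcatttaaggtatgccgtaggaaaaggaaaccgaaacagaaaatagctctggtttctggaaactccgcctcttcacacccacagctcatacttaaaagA
Ifitm3, chr7:141010744-141010844, minus strand: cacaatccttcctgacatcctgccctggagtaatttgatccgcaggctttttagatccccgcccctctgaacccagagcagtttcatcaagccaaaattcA
Bst2, chr8:71537472-71537572, minus strand: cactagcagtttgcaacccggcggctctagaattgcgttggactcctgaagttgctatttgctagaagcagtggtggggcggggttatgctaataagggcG
Rsad2, chr12:26456452-26456552, minus strand: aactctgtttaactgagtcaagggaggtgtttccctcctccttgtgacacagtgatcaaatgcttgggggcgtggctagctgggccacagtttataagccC
Ifi35, chr11:101448312-101448412, plus strand: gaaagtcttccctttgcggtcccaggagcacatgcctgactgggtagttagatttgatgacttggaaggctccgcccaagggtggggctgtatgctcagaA
No binding was measured, so these sequences only place the genes whose RNA levels follow.

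In ATF4 cardiomyocytes 9 of the 34 tested members rose against GFP (26.5%; 9 of the 37 in the table), 25 did not pass and 0 fell, at an adjusted p below 0.05 in edgeR's quasi-likelihood test. Of all 11814 genes, 16.5% rose and 15.6% fell in that comparison. The 9 were Irf1 and Irf8, transcription factors; Isg15, the ubiquitin-like modifier; Ifitm3 and Bst2, membrane proteins that hold back viruses; Rsad2 and Adar, enzymes of nucleotides and RNA; and Ifi27l1 and Ifi35. The median log2 fold change of the 34 was 0.55, with 30 above 0 and 4 below, against 0.02 for all genes tested. The groups did not overlap for 4 of them (11.8%), Bst2, Adar, Ifi27l1 and Ifi35, all higher in ATF4, which is a share like the 11.7% of all genes. With the replicate number as a block, 16 members were called higher (21.6% of all genes were), the 9 and Ifih1, Ddx58, Irf3, Stat2, Ifit1, Ifitm2 and Rtp4. In the same comparison without a block 10 of 12 endothelial markers rose, with values given below.

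In DDIT3 cardiomyocytes 0 of 34 members rose and 0 fell against GFP, with edgeR, with DESeq2 and in the authors' deposited table; among all genes edgeR called 0.525% higher and 0.339% lower. At an unadjusted p below 0.05, Ifi27l1 and Ifi35 were higher, where 5.13% of all genes were, and Ifit3, Oasl1 and Parp14 lower, where 4.58% of all genes were. The median log2 fold change was -0.19, with 5 members above 0 and 29 below, against 0.00354 for all genes. No member was higher in every DDIT3 library than in every GFP library (1.68% of all genes were), and Oasl1 was lower in every one (1.18% of all genes). With the replicate number as a block, Ifi27l1 alone passed, 0.52 ± 0.13 (adjusted p = 0.0493), where 1.55% of all genes were called higher.

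Set against DDIT3, ATF4 libraries had 19 of 34 members higher (55.9%; 17.8% of all genes) and 0 lower (16.0% of all genes). The 19 were Ifih1, Ddx58, Irf1, Irf8, Isg15, Ifit3, Oasl2, Ifitm2, Ifitm3, Bst2, Mx2, Rsad2, Cmpk2, Adar, Parp14, Ifi27l1, Ifi44, Xaf1 and Rtp4. The median log2 fold change was 0.83, with 32 above 0 and 2 below. With the replicate block, which adds Dhx58, Irf2, Irf7, Stat2 and Ifit1, the count was 24 (22.2% of all genes were higher). Groups without overlap numbered 3 (8.82%; 12.3% of all genes): Irf1, Ifitm2 and Adar. The 3 comparisons share libraries: GFP serves both vectors, and the ATF4 and DDIT3 libraries enter 2 of them each, so that the values below are set side by side and not counted as separate evidence.

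**Figure D1:**
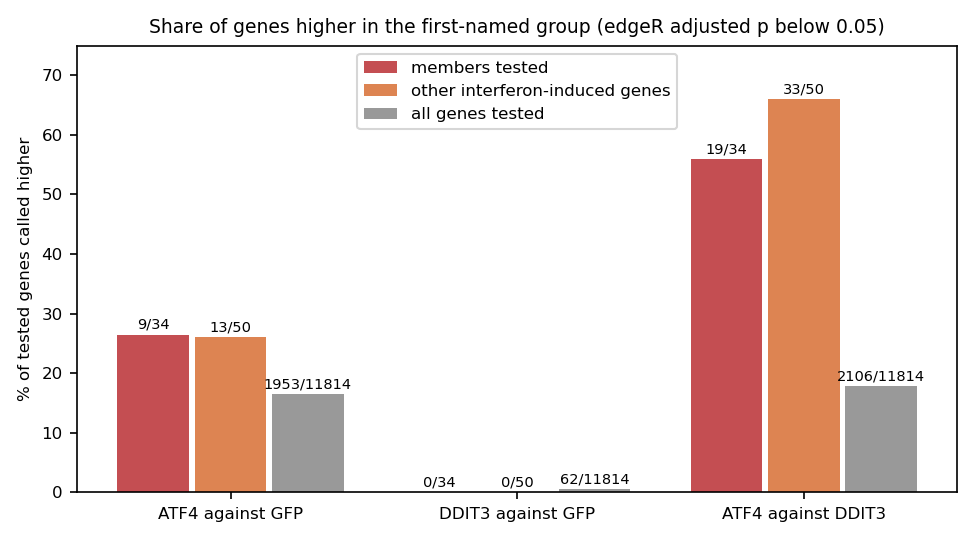
Percentage of genes higher at an adjusted p below 0.05 (vertical axis) in ATF4 against GFP, DDIT3 against GFP and ATF4 against DDIT3, for the 34 members tested, 50 other interferon-induced genes and all 11814 genes. In ATF4 against GFP the bar of the members stands at 26.5%, that of all genes at 16.5%, and in DDIT3 against GFP the members have 0.

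Endothelial markers, too, were called higher in ATF4 against GFP and against DDIT3. Of 12 endothelial markers, 10 rose and 0 fell in ATF4 against GFP (median log2 fold change 0.85) and 11 rose in ATF4 against DDIT3, while in DDIT3 against GFP none was called and all 12 lay below 0 (median -0.35). Their summed level was 1042 to 1529 CPM in ATF4, 440.8 to 751.0 CPM in DDIT3 and 465.1 to 932.9 CPM in GFP libraries, and none was at 0 in any library. By mean log2 CPM, DDIT3 replicate 4 was the highest of its group for members and endothelial markers alike. Replicate 5 was the lowest for both lists in DDIT3 and in GFP. ATF4 replicate 2 was the lowest ATF4 library for the members (3.461). For the endothelial markers it stood at 6.646, in an ATF4 range of 6.051 to 6.663. It was also the lowest ATF4 library for leukocyte (0.1463), fibroblast (4.106) and pericyte and smooth muscle markers (5.05). Replicate 5 was the lowest of DDIT3 and of GFP for leukocyte (0.1541 and 0.6267) and fibroblast markers (3.514 and 3.991). For pericyte and smooth muscle markers the lowest were DDIT3 replicate 2 (4.57) and GFP replicate 5 (4.911). For cardiomyocyte markers they were ATF4 replicate 5 (12.01), DDIT3 replicate 1 (12.47) and GFP replicate 3 (12.57). Among GFP libraries, replicates 2 and 1 were the highest for endothelial markers (5.934 and 5.863), and replicates 1 and 2 for the members (3.704 and 3.528). GFP replicate 4 stood at 5.844 for endothelial markers and at 3.16 for the members. In summed CPM, the endothelial markers of GFP replicates 4, 2 and 1 lay at 932.9, 923.5 and 895.5. The members' sums of these libraries were 380.4, 504.1 and 562.8 CPM. Of 8 pericyte and smooth muscle markers 4 rose in ATF4 against each of DDIT3 and GFP. The 8 summed to 709.2 to 1381 CPM in ATF4, 703.3 to 1408 CPM in DDIT3 and 844.3 to 1340 CPM in GFP libraries. Abcc9 and Acta2, the most abundant and not called, averaged 496 and 387 CPM in ATF4 libraries. The 4 that rose, Pdgfrb, Rgs5, Cspg4 and Kcnj8, averaged between 36.7 and 97.0 CPM there. The mean log2 CPM over the 8 was 5.661 ± 0.397 in ATF4, 5.086 ± 0.374 in DDIT3 and 5.248 ± 0.216 in GFP libraries. Of 8 tested fibroblast markers 1 rose and 1 fell in ATF4 against GFP, 1 fell in DDIT3 against GFP, and 3 rose and 1 fell in ATF4 against DDIT3; they summed to 254.8 to 685.6 CPM in ATF4, 187.3 to 424.4 CPM in DDIT3 and 276.7 to 550.3 CPM in GFP libraries. Of the 10 cardiomyocyte markers 5 fell in ATF4 against GFP and 4 in ATF4 against DDIT3. Leukocyte markers, of which 6 were tested, had 0 calls in all 3 comparisons with edgeR and with DESeq2 and 0 at an unadjusted p below 0.05; the 11 in the table summed to 11.29 to 28.13 CPM in ATF4, 14.15 to 24.13 CPM in DDIT3 and 19.12 to 26.96 CPM in GFP libraries, and Cd3e, the T cell receptor subunit, was at 0 in 14 of the 15. The part of other cell types in the counts of members was not tested, and in bulk RNA fewer cells of a type and less RNA per cell cannot be told apart.

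Summed over the 34 tested members, levels were 543.7 to 661.5 CPM in ATF4 (median 593.9), 321.6 to 475.9 CPM in DDIT3 (median 424.8) and 344.1 to 562.8 CPM in GFP libraries (median 387.1). The highest GFP library, replicate 1, thus stood above the lowest ATF4 library, and DDIT3 and GFP ranges overlapped. The mean log2 CPM over the members was 3.773 ± 0.196 in ATF4, 3.116 ± 0.263 in DDIT3 and 3.296 ± 0.307 in GFP libraries. By group means, 25 members ran ATF4 above GFP above DDIT3, 4 ran ATF4 above DDIT3 above GFP, and 5 followed other orders.

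**Figure D2:**
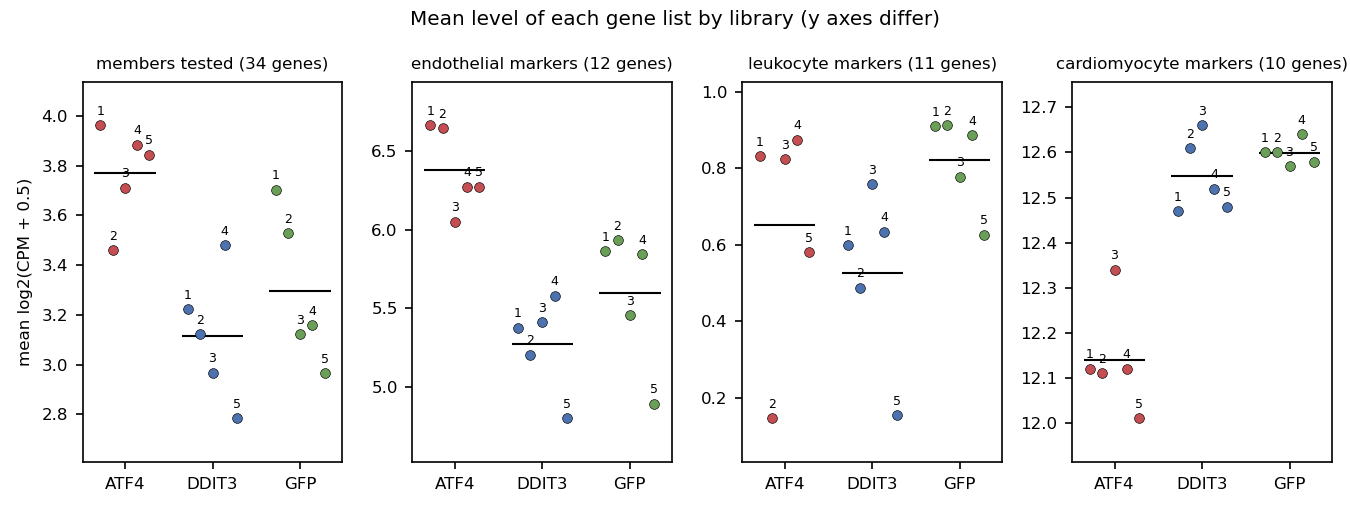
Members and endothelial markers by library: each point is the mean log2 CPM over the tested genes of the list in 1 of the 15 libraries, with groups from left to right ATF4, DDIT3 and GFP. In the members' panel the groups average 3.773, 3.116 and 3.296, and ATF4 and GFP ranges overlap.

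The count of 9 against GFP moved with single libraries. It was 3 without ATF4 replicate 1, 14 without ATF4 replicate 2, 4 without ATF4 replicate 4, 5 without ATF4 replicate 5, 3 without GFP replicate 3, 5 without GFP replicate 4 and 3 without GFP replicate 5, whose label names SMART-Seq3. It was 6 with a term for the sex read from the data and 6 without a filter on low counts. Isg15, Bst2 and Rsad2 lost the call with the sex term, and Irf8, Ifitm3 and Rsad2 without the filter. Irf1 lost it in a fit of the 2 groups alone. Shares of all genes called were not worked out for these fits or for those against DDIT3 below. Whether the moves are particular to the members was therefore not tested. Adar, Ifi27l1 and Ifi35 stayed called under all 22 alternatives. Irf1 lost the call without any 1 of ATF4 replicates 1 and 3 or GFP replicates 3, 4 and 5, and Ifitm3 without any 1 of ATF4 replicates 1, 3, 4 and 5 or GFP replicates 3, 4 and 5. Bst2 lost it without any 1 of ATF4 replicates 1, 4 and 5 or GFP replicates 1, 3 and 5, and Rsad2 without any 1 of ATF4 replicates 1 and 4 or GFP replicates 2, 3, 4 and 5. Isg15 lost it in 6 and Irf8 in 8 of the 15 sets that leave out 1 library. Against DDIT3, the count stayed between 14 and 22 when 1 library was left out, and it was 24 with the replicate block. Of the 19, 14 stayed called under all 22 alternatives, while Isg15, Oasl2, Mx2, Ifi27l1 and Xaf1 did not. Ifi27l1 lost that call without any 1 of ATF4 replicates 1, 2 and 5 or DDIT3 replicates 3, 4 and 5, and Isg15 without any 1 of ATF4 replicates 4 and 5 or DDIT3 replicates 2, 3 and 5.

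Without the block, the receptors of virus nucleic acid had 0 calls against GFP and 2 of 3 tested genes higher in ATF4 than in DDIT3. Ifih1 encodes MDA5, the sensor of long RNA duplexes. Its levels were 10.7, 8.36, 5.11, 10.2 and 8.76 CPM in ATF4 libraries, 5.08, 4.85, 3.498, 5.86 and 4.85 CPM in DDIT3 libraries and 9.52, 6.52, 5.05, 4.74 and 3.32 CPM in GFP libraries. Every ATF4 library except replicate 3 stood above all DDIT3 libraries, and GFP replicate 1 was near the top of the ATF4 range. The log2 fold change, given here and below with its SE, was 0.84 ± 0.25 (adjusted p = 0.0169) against DDIT3 and 0.56 ± 0.25 (adjusted p = 0.1) against GFP, where it was 0.57 ± 0.21 (adjusted p = 0.0354) with the block. Ddx58 encodes RIG-I, which senses the triphosphate end of viral RNA, and had 21.7, 19.8, 17.2, 13.8 and 21.3 CPM in ATF4 libraries, 12.7, 12.1, 10.98, 13.9 and 9.296 CPM in DDIT3 libraries and 21.5, 12.8, 13.02, 10.3 and 13.7 CPM in GFP libraries. ATF4 replicate 4 lay just below DDIT3 replicate 4, and GFP replicate 1 reached the top of the ATF4 range. Ddx58 was higher in ATF4 than in DDIT3 (0.67 ± 0.19, adjusted p = 0.00951) and differed by 0.40 ± 0.18 (adjusted p = 0.108) from GFP, or by 0.41 ± 0.16 (adjusted p = 0.0467) with the block. Dhx58, which encodes LGP2, a relative that tunes these sensors, had 3.78, 0, 2.56, 2.27 and 2.03 CPM in ATF4 libraries, 0.847, 0.971, 0.603, 1.301 and 0.539 CPM in DDIT3 libraries and 2.15, 1.04, 1.38, 1.58 and 1.42 CPM in GFP libraries. ATF4 replicate 2 held no read of it, and the other 4 ATF4 libraries stood above all DDIT3 libraries. Its difference from DDIT3 was 1.32 ± 0.52 (adjusted p = 0.0607), and 1.24 ± 0.48 (adjusted p = 0.0479) with the replicate block. Zbp1, a sensor of Z-form nucleic acid that can start cell death, had 12 counts in the 5 ATF4, 2 in the 5 DDIT3 and 12 in the 5 GFP libraries and was not tested.

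Of the transcription factors of the response, Irf1 and Irf8 rose in ATF4 and the other 5 tested did not pass without the block. Irf1, a factor of interferon gamma and type I responses, at chr11:53770014-53778374 (plus strand), had 25.7, 22.6, 29.7, 22.6 and 20.3 CPM in ATF4 libraries, 15.01, 13.6, 14.8, 14.8 and 10.2 CPM in DDIT3 libraries and 17.6, 23.6, 14.9, 15.8 and 8.06 CPM in GFP libraries. Every ATF4 library stood above every DDIT3 library, while GFP replicate 2 reached into the ATF4 range. The log2 fold change was 0.59 ± 0.20 (adjusted p = 0.033) against GFP and 0.82 ± 0.20 (adjusted p = 0.00492) against DDIT3. Irf8, a factor known from myeloid cells, at chr8:120736358-120756694 (plus strand), had 3.78, 5.28, 1.75, 3.83 and 4.19 CPM in ATF4 libraries, 2.06, 1.11, 1.21, 2.34 and 1.35 CPM in DDIT3 libraries and 2.41, 2.61, 1.68, 1.98 and 1.897 CPM in GFP libraries. ATF4 replicate 3 lay within the GFP and DDIT3 ranges and the other 4 ATF4 libraries above both. Irf8 changed by 0.82 ± 0.29 (adjusted p = 0.0394) against GFP and 1.21 ± 0.30 (adjusted p = 0.00443) against DDIT3. Without any 1 of ATF4 replicates 1, 2, 4 and 5 or GFP replicates 1, 3, 4 and 5 the call of Irf8 against GFP was lost.

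Irf7, which amplifies interferon alpha transcription, did not pass against either group in the fit without a block. It had 21.7, 10.4, 16.3, 16.6 and 19.7 CPM in ATF4 libraries, 15.4, 12.1, 9.05, 9.89 and 8.62 CPM in DDIT3 libraries and 15.3, 18.9, 12.1, 5.53 and 10.3 CPM in GFP libraries. All 3 ranges overlapped, and the differences were 0.45 ± 0.26 (adjusted p = 0.206) against GFP and 0.62 ± 0.26 (adjusted p = 0.0774) against DDIT3, the second being 0.65 ± 0.24 (adjusted p = 0.043) with the block. Stat2, a transcription factor activated at the interferon receptor, had 41.1, 34.6, 33.4, 26.7 and 25.3 CPM in ATF4 libraries, 22.5, 26.9, 26.1, 24.3 and 15.9 CPM in DDIT3 libraries and 37.8, 32.97, 23.4, 15.7 and 12.96 CPM in GFP libraries. GFP ranged from below all ATF4 libraries to near their top, with replicate 1 the highest of its group. Stat2 differed by 0.39 ± 0.24 (adjusted p = 0.242) from GFP and by 0.48 ± 0.24 (adjusted p = 0.146) from DDIT3, and with the block by 0.45 ± 0.16 (adjusted p = 0.0326) from GFP and by 0.47 ± 0.16 (adjusted p = 0.0249) from DDIT3.

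Irf2, a relative that competes with IRF1 at promoters, had 16.4, 26.5, 17.1, 12.8 and 14.2 CPM in ATF4 libraries, 11.7, 17.3, 12.3, 10.2 and 10.6 CPM in DDIT3 libraries and 17.7, 16.7, 10.3, 13.96 and 11.9 CPM in GFP libraries. Replicate 2 was the highest of both ATF4 and DDIT3, and all 3 ranges overlapped. The difference from DDIT3 was 0.48 ± 0.21 (adjusted p = 0.0811), and 0.47 ± 0.14 (adjusted p = 0.0137) with the block. Irf3, present before infection and activated by phosphorylation to start interferon transcription, had 20.2, 29.5, 27.2, 22.7 and 16.3 CPM in ATF4 libraries, 22.9, 30.8, 21.4, 21.9 and 15.6 CPM in DDIT3 libraries and 17.7, 19.4, 23.1, 17.5 and 12.3 CPM in GFP libraries. All 3 ranges overlapped, with replicate 5 the lowest in each group. It differed by 0.36 ± 0.19 (adjusted p = 0.169) from GFP and by 0.04 ± 0.19 (adjusted p = 0.896) from DDIT3, and by 0.36 ± 0.11 (adjusted p = 0.0185) from GFP with the block. Irf9, the DNA-binding part of the STAT complex, ranged over 22.1 to 29.5 CPM in ATF4, 19.1 to 33.7 CPM in DDIT3 and 16.6 to 35.1 CPM in GFP libraries and differed by 0.01 ± 0.19 (adjusted p = 0.977) between ATF4 and GFP. Irf5, a factor downstream of Toll-like receptors, had 37 counts in ATF4, 17 in DDIT3 and 22 in GFP libraries over the 5 of each group and was not tested.

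**Figure D3:**
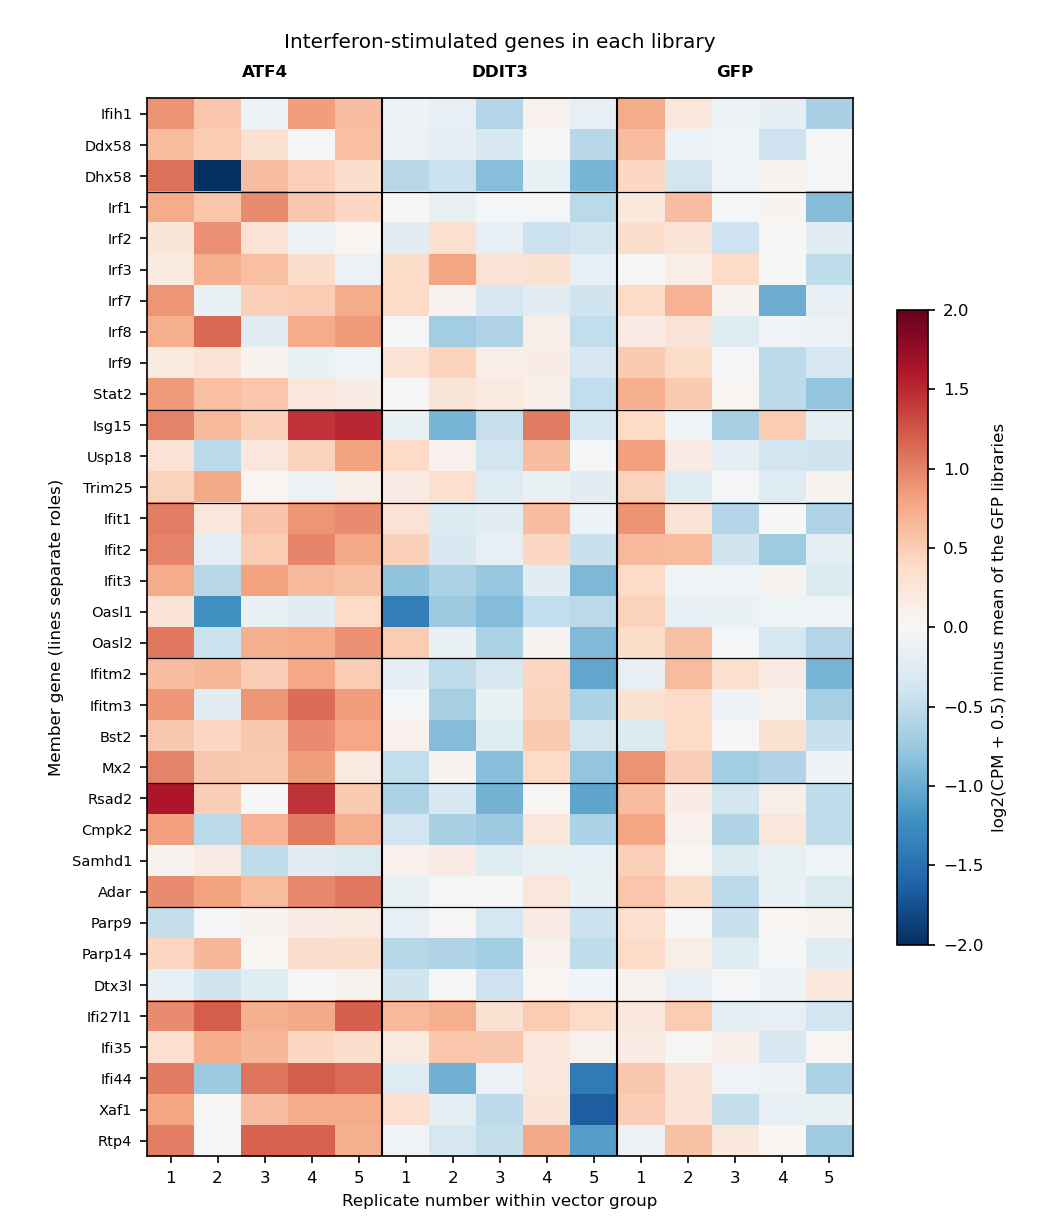
Heat map of the tested members (rows, ordered by role) in the 15 libraries (columns, ATF4, DDIT3 and GFP from left to right). Colour is log2 of CPM plus 0.5, minus the gene's mean over the GFP libraries. ATF4 replicate 2 is the lowest ATF4 library for 15 members and the highest for 9.

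Isg15 had the largest fold change of the tested members against GFP, on few reads: 17 to 41 counts per ATF4 library and 5 to 18 per GFP library. Its product is a ubiquitin-like protein that is secreted and also attached to other proteins. Isg15, at chr4:156199424-156200818 (minus strand), had 3.52, 2.64, 2.29, 4.97 and 5.21 CPM in ATF4 libraries, 1.33, 0.555, 0.965, 3.64 and 1.08 CPM in DDIT3 libraries and 2.15, 1.43, 0.766, 2.37 and 1.26 CPM in GFP libraries. DDIT3 replicate 4 stood apart from its group and inside the ATF4 range. Its log2 fold change was 1.20 ± 0.42 (adjusted p = 0.0348) against GFP and 1.29 ± 0.42 (adjusted p = 0.0227) against DDIT3. The call against GFP was lost without any 1 of ATF4 replicates 1, 4 and 5 or GFP replicates 2, 3 and 5, and with the sex term. Usp18, the protease that removes ISG15 and damps the interferon receptor, ranged over 4.69 to 12.7 CPM in ATF4, 5.31 to 11.1 CPM in DDIT3 and 5.22 to 12.9 CPM in GFP libraries, and Trim25, a ubiquitin ligase that acts on RIG-I, over 21.1 to 39.3 CPM in ATF4, 19.1 to 29.1 CPM in DDIT3 and 19.2 to 31.8 CPM in GFP libraries. Neither was called in any comparison (adjusted p = 0.54 and 0.282 in ATF4 against GFP).

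Among the IFIT and OAS-like proteins, without the block, 0 of 5 passed against GFP and Ifit3 and Oasl2 passed against DDIT3. IFIT proteins bind foreign RNA ends and hold back its translation. Ifit3 had 9.38, 3.52, 9.82, 8.7995 and 8.38 CPM in ATF4 libraries, 2.91, 3.33, 3.02, 4.55 and 2.69 CPM in DDIT3 libraries and 7.24, 5.08, 5.05, 5.66 and 4.43 CPM in GFP libraries. In ATF4, 4 libraries lay close together and replicate 2 far below them. The differences were 0.54 ± 0.24 (adjusted p = 0.0969) against GFP and 1.27 ± 0.25 (adjusted p = 0.000772) against DDIT3; without ATF4 replicate 2 the call against GFP was made. Ifit1 had 12.2, 6.89, 8.88, 11.1 and 11.6 CPM in ATF4 libraries, 7.14, 4.72, 4.95, 9.11 and 5.39 CPM in DDIT3 libraries and 11.3, 7.17, 3.68, 5.79 and 3.63 CPM in GFP libraries. Replicates 1 and 4 of DDIT3 and replicates 1 and 2 of GFP lay within the ATF4 range. The differences were 0.67 ± 0.28 (adjusted p = 0.0757) against GFP, 0.69 ± 0.28 (adjusted p = 0.0648) against DDIT3 and, with the block, 0.72 ± 0.23 (adjusted p = 0.0199) against GFP and 0.71 ± 0.23 (adjusted p = 0.0188) against DDIT3. Oasl2, a member of the 2′-5′-oligoadenylate synthetase family, had 14.7, 4.98, 11.6, 11.8 and 13.3 CPM in ATF4 libraries, 9.93, 6.24, 4.22, 7.16 and 3.503 CPM in DDIT3 libraries and 8.99, 10.6, 6.74, 5.27 and 4.43 CPM in GFP libraries. ATF4 replicate 2 lay inside the other groups' ranges and the other 4 ATF4 libraries above both. It differed by 0.64 ± 0.31 (adjusted p = 0.118) from GFP and by 0.86 ± 0.31 (adjusted p = 0.0391) from DDIT3, a call lost without any 1 of ATF4 replicates 1, 3, 4 and 5 or DDIT3 replicates 2, 3 and 5. Ifit2 ranged over 12.8 to 29.2 CPM in ATF4, 10.5 to 20.3 CPM in DDIT3 and 8.69 to 23.1 CPM in GFP libraries. Oasl1, which in mouse holds back Irf7 translation, ranged over 0.733 to 3.302 CPM in ATF4, 0.605 to 1.56 CPM in DDIT3 and 2.09 to 3.49 CPM in GFP libraries; every DDIT3 library was below every GFP library, with a difference of -1.02 ± 0.36 (adjusted p = 0.267).

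All 4 tested proteins of membrane and entry restriction were higher in ATF4 than in DDIT3, and Ifitm3 and Bst2 were higher than in GFP. IFITM proteins sit in endosomal and plasma membranes and block the fusion of enveloped viruses. Ifitm3, at chr7:141009590-141010744 (minus strand), had 50.3, 23.5, 50.6, 59.3 and 48.8 CPM in ATF4 libraries, 26.9, 17.1, 24.7, 37.3 and 17.4 CPM in DDIT3 libraries and 33.7, 35.7, 25.4, 28.4 and 17.1 CPM in GFP libraries. The groups overlapped, and ATF4 replicate 2 was the lowest of its group. Ifitm3 changed by 0.73 ± 0.25 (adjusted p = 0.0352) against GFP and 0.91 ± 0.25 (adjusted p = 0.0099) against DDIT3. Ifitm2 had 17.2, 17.7, 15.7, 19.2 and 15.9 CPM in ATF4 libraries, 9.68, 7.63, 8.81, 15.1 and 5.12 CPM in DDIT3 libraries and 9.79, 17.3, 13.9, 12.2 and 5.53 CPM in GFP libraries. Every ATF4 library stood above every DDIT3 library. GFP replicate 2 lay within the ATF4 range and the other 4 GFP libraries below it. Ifitm2 differed by 0.88 ± 0.26 (adjusted p = 0.0143) from DDIT3 and by 0.54 ± 0.26 (adjusted p = 0.122) from GFP, or by 0.59 ± 0.21 (adjusted p = 0.0308) with the block. Of its exon bases, 40.9% are shared with Gm45717 on the same strand, so that its reads cannot all be assigned.

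Bst2, at chr8:71534255-71537472 (minus strand), encodes tetherin, which ties budding viruses to the cell surface, and had 13.3, 12.2, 13.3, 17.7 and 15.7 CPM in ATF4 libraries, 9.56, 4.72, 7.48, 13.1 and 6.87 CPM in DDIT3 libraries and 7.38, 11.99, 9.04, 11.2 and 6.48 CPM in GFP libraries. Every ATF4 library lay above every GFP library, and DDIT3 replicate 4 reached into the ATF4 range. Bst2 changed by 0.64 ± 0.23 (adjusted p = 0.0404) against GFP and 0.79 ± 0.23 (adjusted p = 0.0136) against DDIT3. Mx2, a dynamin-like GTPase against viruses, was near the detection limit, with 2.604, 1.76, 1.75, 2.27 and 1.27 CPM in ATF4 libraries, 0.605, 1.11, 0.362, 1.56 and 0.404 CPM in DDIT3 libraries and 2.41, 1.69, 0.4595, 0.527 and 0.948 CPM in GFP libraries. All 3 ranges overlapped. It differed by 1.25 ± 0.46 (adjusted p = 0.045) from DDIT3, a call lost without any 1 of ATF4 replicates 1, 2, 3 and 4, DDIT3 replicates 1, 3 and 5 or GFP replicates 2 and 5, and by 0.65 ± 0.44 (adjusted p = 0.278) from GFP. Ifitm1 had 20 counts in ATF4, 8 in DDIT3 and 18 in GFP libraries over the 5 of each group and was not tested.

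Of the nucleotide and RNA enzymes, Rsad2 and Adar rose in both comparisons of ATF4, Cmpk2 rose against DDIT3, and Samhd1 did not pass in any. Rsad2 encodes viperin, which makes a chain-terminating nucleotide. Rsad2, at chr12:26442743-26456452 (minus strand), had 61.2, 27.6, 19.4, 53.9 and 28.2 CPM in ATF4 libraries, 12.5, 15.7, 9.89, 19.8 and 9.16 CPM in DDIT3 libraries and 30.2, 21.6, 15.01, 21.3 and 13.6 CPM in GFP libraries. ATF4 replicate 3 lay below DDIT3 replicate 4 and below 3 GFP libraries, and GFP replicate 1 lay above 3 ATF4 libraries. The log2 fold change was 0.90 ± 0.31 (adjusted p = 0.0329) against GFP and 1.51 ± 0.31 (adjusted p = 0.00139) against DDIT3, the largest difference of a member in the second. Cmpk2, the mitochondrial kinase that supplies viperin's substrate, starts 12665 bases from Rsad2 on chromosome 12 and is read in the other direction. Cmpk2 had 18.6, 6.89, 16.9, 21.6 and 17.3 CPM in ATF4 libraries, 7.75, 6.38, 6.03, 12.1 and 6.47 CPM in DDIT3 libraries and 18.1, 10.9, 6.59, 12.1 and 7.11 CPM in GFP libraries. ATF4 replicate 2 was the only ATF4 library within the DDIT3 range, while 4 GFP libraries lay within the ATF4 range. It differed by 1.07 ± 0.30 (adjusted p = 0.0109) from DDIT3 and by 0.56 ± 0.30 (adjusted p = 0.158) from GFP.

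Adar, the editor that turns adenosine into inosine in RNA duplexes and keeps the cell's own RNA from the MDA5 sensor, had 38.8, 35.3, 31.3, 39.6 and 41.9 CPM in ATF4 libraries, 17.9, 19.7, 20.1, 23.6 and 18.2 CPM in DDIT3 libraries and 29.8, 26.1, 13.8, 18.3 and 16.3 CPM in GFP libraries. Every ATF4 library stood above every library of the other 10. Adar changed by 0.84 ± 0.17 (adjusted p = 0.00127) against GFP and 0.91 ± 0.17 (adjusted p = 0.000614) against DDIT3. Adar lies at chr3:89714469-89753455 (plus strand), in RefSeq coordinates of GRCm38.p6 as for all genes here, and shares 16.8% of its exon bases with Chrnb2 on the other strand, which averaged 0.933 CPM in ATF4, 0.204 CPM in DDIT3 and 0.277 CPM in GFP libraries; since the kit keeps no strand information, reads of the shared part cannot be told apart. Samhd1, which degrades DNA building blocks, ranged over 12.9 to 20.7 CPM in ATF4, 15.6 to 20.7 CPM in DDIT3 and 15.2 to 26.02 CPM in GFP libraries (difference -0.17 ± 0.16, adjusted p = 0.436 from GFP).

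**Figure D4:**
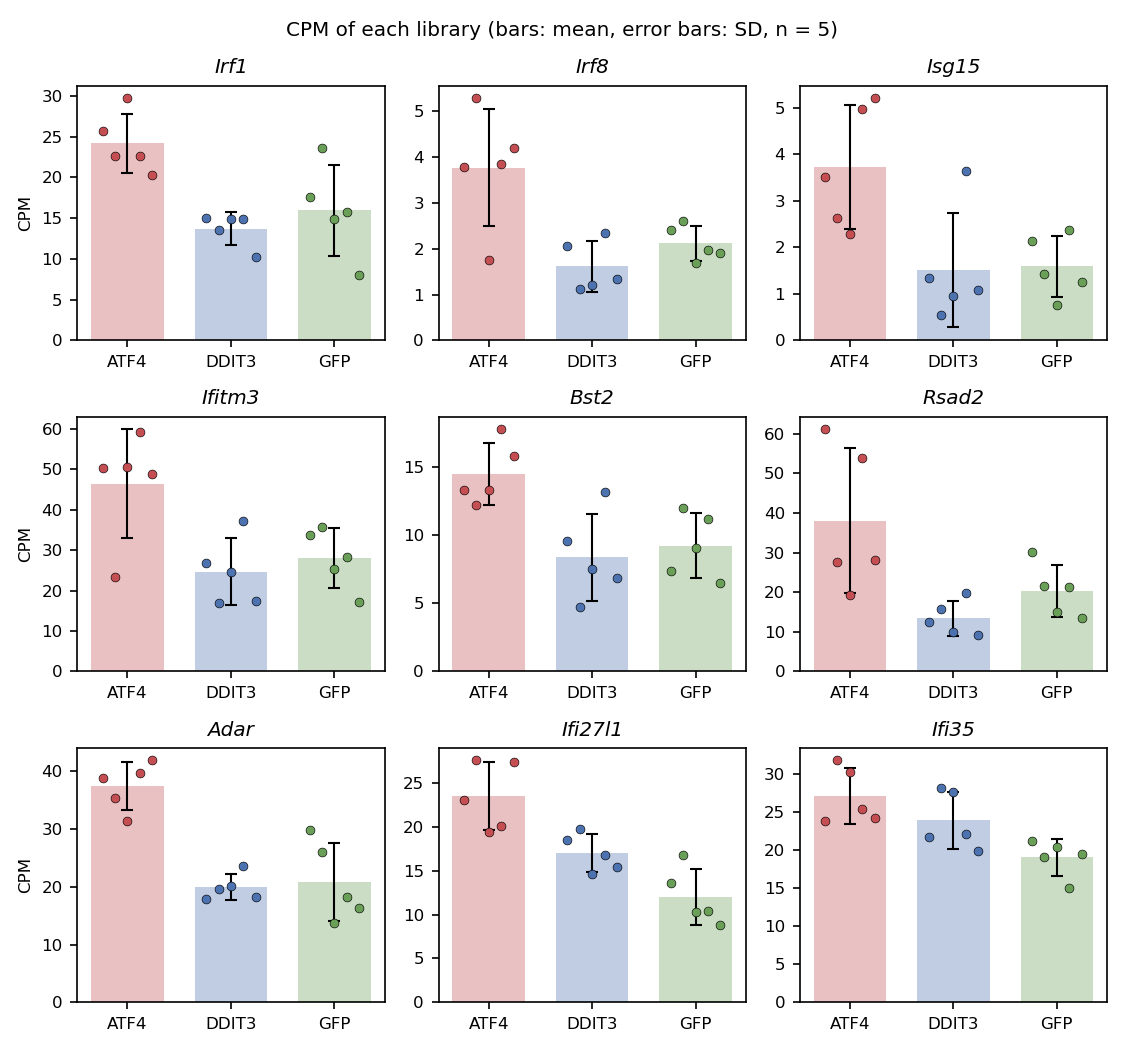
CPM of each library (points) for the 9 members higher in ATF4 than in GFP, with group means as bars and SD as error bars (n = 5), groups from left to right ATF4, DDIT3 and GFP. Adar, Ifi27l1, Ifi35 and Bst2 show no overlap of ATF4 and GFP points.

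Parp14, Parp9 and Dtx3l, which attach ADP-ribose or ubiquitin to proteins and lie close together on chromosome 16, had 0 calls against GFP. Parp14 had 18.1, 21.3, 13.7, 17.2 and 17.02 CPM in ATF4 libraries, 8.84, 8.6002, 8.08, 14.2 and 9.16 CPM in DDIT3 libraries and 17.6, 14.6, 11.2, 12.9 and 11.2 CPM in GFP libraries. It was higher in ATF4 than in DDIT3 (0.84 ± 0.18, adjusted p = 0.00147), where 4 of the DDIT3 libraries lay between 8.08 and 9.16 CPM and replicate 4 at 14.2 CPM, and differed by 0.37 ± 0.17 (adjusted p = 0.118) from GFP. Parp9 ranged over 14.8 to 23.7 CPM in ATF4, 15.4 to 23.4 CPM in DDIT3 and 15.2 to 26.3 CPM in GFP libraries, and its partner Dtx3l over 23.5 to 32.6 CPM in ATF4, 23.04 to 31.8 CPM in DDIT3 and 27.6 to 36.03 CPM in GFP libraries. These partners overlap on opposite strands by 458 exon bases, 9.4% of Parp9 and 8.0% of Dtx3l, and neither passed in any comparison.

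Of the remaining induced proteins, Ifi27l1 and Ifi35 rose against GFP with no overlap of the groups. Ifi27l1, a small hydrophobic protein of the ISG12 family at chr12:103434189-103440245 (plus strand), had 23.05, 27.6, 19.4, 20.01 and 27.3 CPM in ATF4 libraries, 18.5, 19.7, 14.6, 16.8 and 15.4 CPM in DDIT3 libraries and 13.5, 16.8, 10.3, 10.4 and 8.85 CPM in GFP libraries. The lowest ATF4 library stood above the highest GFP library, and the DDIT3 range overlapped both. The log2 fold change was 0.96 ± 0.17 (adjusted p = 0.000294) against GFP, 0.47 ± 0.17 (adjusted p = 0.0379) against DDIT3 and 0.50 ± 0.17 (adjusted p = 0.257) for DDIT3 against GFP. Ifi35, a leucine-zipper protein that binds NMI, at chr11:101448412-101458701 (plus strand), had 23.8, 31.8, 30.3, 25.4 and 24.3 CPM in ATF4 libraries, 21.7, 28.2, 27.6, 22.1 and 19.9 CPM in DDIT3 libraries and 21.2, 19.2, 20.4, 15.01 and 19.4 CPM in GFP libraries. All ATF4 libraries stood above all GFP libraries, and DDIT3 replicates 2 and 3 lay within the ATF4 range. Its log2 fold change was 0.51 ± 0.14 (adjusted p = 0.00788) in ATF4 and 0.33 ± 0.14 (adjusted p = 0.41) in DDIT3 against GFP, and 0.18 ± 0.13 (adjusted p = 0.323) in ATF4 against DDIT3. It shares 16.8% of its exon bases with Gm11626 on the other strand.

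Ifi44, Xaf1 and Rtp4 were higher in ATF4 than in DDIT3, and against GFP they did not pass with edgeR without the block. Ifi44, a GTP-binding antiviral protein, had 8.203, 2.05, 8.34, 9.23 and 8.76 CPM in ATF4 libraries, 3.03, 1.66, 3.38, 4.42 and 1.08 CPM in DDIT3 libraries and 5.63, 4.56, 3.52, 3.42 and 2.21 CPM in GFP libraries. Replicate 2 was far below the other ATF4 libraries, and without it the call against GFP was made. Ifi44 differed by 0.91 ± 0.37 (adjusted p = 0.0682) from GFP and by 1.42 ± 0.38 (adjusted p = 0.00778) from DDIT3. Xaf1, which antagonises the caspase inhibitor XIAP, had 7.29, 4.105, 6.46, 7.096 and 7.11 CPM in ATF4 libraries, 5.21, 3.47, 2.65, 4.94 and 0.943 CPM in DDIT3 libraries and 5.901, 4.95, 2.76, 3.56 and 3.63 CPM in GFP libraries. ATF4 replicate 2 was again the lowest of its group. Xaf1 differed by 0.62 ± 0.32 (adjusted p = 0.151) from GFP and by 0.89 ± 0.32 (adjusted p = 0.0409) from DDIT3, a call lost without any 1 of ATF4 replicates 1, 3, 4 and 5 or DDIT3 replicates 2, 3 and 5. Rtp4, a chaperone of receptors on their way to the membrane, had 12.2, 5.57, 13.6, 13.6 and 9.78 CPM in ATF4 libraries, 5.45, 4.44, 3.98, 10.02 and 2.42 CPM in DDIT3 libraries and 5.23, 8.86, 6.74, 5.93 and 3.32 CPM in GFP libraries. ATF4 replicates 2 and 5 lay below DDIT3 replicate 4, and ATF4 replicate 2 below 3 GFP libraries. It differed by 0.86 ± 0.32 (adjusted p = 0.0502) from GFP and by 1.06 ± 0.33 (adjusted p = 0.0178) from DDIT3. Against GFP, Rtp4 was 0.86 ± 0.29 (adjusted p = 0.026) with the block and was also called with DESeq2 and in a fit of the 2 groups alone. The authors' deposited table calls Rtp4 (adjusted p = 0.0158) and Ifi44 (adjusted p = 0.0452) higher in ATF4. Rtp4 shares 13.9% of its exon bases with Gm45338 on the same strand.

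**Figure D5:**
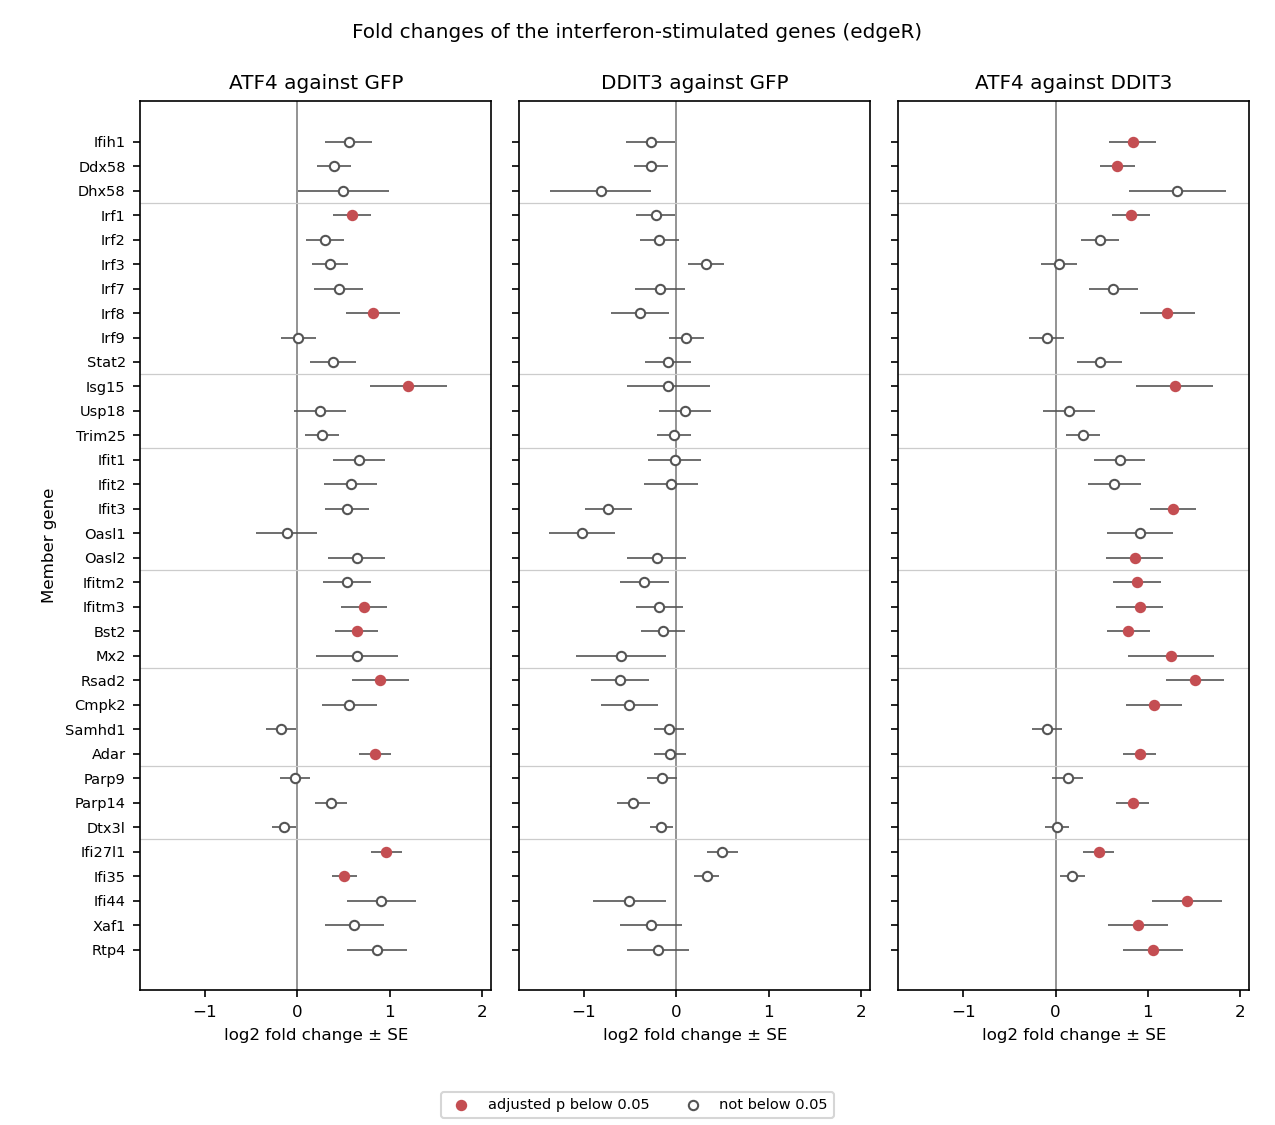
Log2 fold change with its standard error for the tested members (rows, by role) in ATF4 against GFP, DDIT3 against GFP and ATF4 against DDIT3; filled points passed an adjusted p of 0.05. In the DDIT3 against GFP panel no point is filled and 29 of 34 lie below 0.

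Within groups, the same libraries tended to hold the extremes. ATF4 replicate 2 was the lowest ATF4 library for 15 of the 34 tested members, among them Irf7, Ifit1, Ifit2, Ifit3, Oasl1, Oasl2, Usp18, Ifi44, Xaf1 and Rtp4, and the highest for 9, namely Irf2, Irf3, Irf8, Irf9, Trim25, Samhd1, Parp14, Ifi27l1 and Ifi35. DDIT3 replicate 4 was the highest of its group for 21 members and replicate 5 the lowest for 17. GFP replicate 1 was the highest of its group for 22 members and replicate 5 the lowest for 15. Members are not independent here, since all share the library.

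Per length of the gene, Ifitm3 was the most abundant member in all 3 groups, with 71.7 ± 20.9 CPM per kilobase in ATF4, 38.1 ± 12.8 CPM per kilobase in DDIT3 and 43.3 ± 11.4 CPM per kilobase in GFP libraries. Ifitm2 was next in GFP libraries, with 27.3 ± 2.26 CPM per kilobase in ATF4, 14.8 ± 5.87 CPM per kilobase in DDIT3 and 18.8 ± 7.07 CPM per kilobase in GFP libraries. In GFP libraries Ifi35 (13.996 ± 1.76 CPM per kilobase), Bst2 (12.03 ± 3.096) and Ifi27l1 (11.4 ± 3.04) followed, and these neighbours did not differ beyond their spread. Isg15 stood far lower, with 4.92 ± 1.75 CPM per kilobase in ATF4, 2.003 ± 1.62 CPM per kilobase in DDIT3 and 2.11 ± 0.869 CPM per kilobase in GFP libraries. Zbp1, Irf5, Mx2 and Ifitm1 had the lowest levels in GFP libraries, between 0.153 and 0.587 CPM per kilobase.

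Genes of the interferon pathway that were no members moved in both directions in ATF4. Of 110 such symbols 101 had a row and 80 were tested; 17 rose (21.2%, against 16.5% of all genes) and 5 fell (15.6% of all genes did) in ATF4 against GFP, 0 were called in DDIT3 against GFP, and 39 rose (48.8%, against 17.8% of all genes) and 5 fell (16.0% of all genes did) in ATF4 against DDIT3. For the interferons themselves, 8 of 10 listed genes had a row and held 1 count in all 15 libraries together, a read of Ifnk in a DDIT3 library. Among 50 tested other interferon-induced genes, 13 rose and 1 fell in ATF4 against GFP (median log2 fold change 0.55), and 33 rose and 1 fell in ATF4 against DDIT3 (median 0.98). In DDIT3 against GFP edgeR called 0 of the 50 and DESeq2 called 1 lower, with 8 lower (4.58% of all genes were) and 0 higher at an unadjusted p below 0.05 (median -0.32). Isg20, an RNA exonuclease, averaged 6.28 ± 1.24 CPM in ATF4, 0.512 ± 0.2198 CPM in DDIT3 and 0.989 ± 0.279 CPM in GFP libraries, with log2 fold changes of 2.65 ± 0.27 (adjusted p = 7.22e-07) against GFP and 3.57 ± 0.30 (adjusted p = 3.78e-08) against DDIT3. Tor3a, an ATPase of the endoplasmic reticulum, averaged 55.2 ± 7.11 CPM in ATF4, 16.9 ± 2.95 CPM in DDIT3 and 17.2 ± 4.77 CPM in GFP libraries (1.68 ± 0.17, adjusted p = 6.49e-07 against GFP). Psme1, a subunit of the proteasome activator PA28, went the other way, with 74.3 ± 8.78 CPM in ATF4, 142 ± 10.7 CPM in DDIT3 and 143 ± 12.5 CPM in GFP libraries (-0.95 ± 0.10, adjusted p = 9.27e-07 against GFP).

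Of the 10 tested receptors, kinases and STATs, 2 rose and 3 fell in ATF4 against GFP. Ifngr2, a chain of the interferon gamma receptor, averaged 268 ± 66.5 CPM in ATF4, 431 ± 36.4 CPM in DDIT3 and 452 ± 47.1 CPM in GFP libraries and fell (-0.75 ± 0.14, adjusted p = 0.000626 against GFP). Il10rb, a chain shared by receptors of interferon lambda and interleukin 10, averaged 161 ± 13.97 CPM in ATF4, 215 ± 8.803 CPM in DDIT3 and 207 ± 23.1 CPM in GFP libraries and fell (-0.37 ± 0.09, adjusted p = 0.00552), as did Jak2, a kinase of the interferon gamma receptor, with 30.4 ± 5.34 CPM in ATF4, 40.2 ± 6.39 CPM in DDIT3 and 42.95 ± 3.51 CPM in GFP libraries (-0.50 ± 0.13, adjusted p = 0.00738). Ifngr1, the other chain of the interferon gamma receptor, was 1 of the 2 that rose against GFP (0.30 ± 0.10, adjusted p = 0.031). It was also higher in ATF4 than in DDIT3 (0.44 ± 0.10, adjusted p = 0.00327). Of 13 tested sensing and signalling genes, Myd88, the Toll-like receptor adaptor, was the 1 that rose against GFP (0.44 ± 0.12, adjusted p = 0.00948), and against DDIT3 it rose (0.36 ± 0.12, adjusted p = 0.0263) along with Unc93b1, the trafficking protein of endosomal Toll-like receptors (0.99 ± 0.27, adjusted p = 0.00904), and Tmem173, which encodes STING (1.07 ± 0.31, adjusted p = 0.0127). Of 7 tested negative regulators, Trex1, a DNA exonuclease, rose against GFP (0.55 ± 0.17, adjusted p = 0.0207), Nlrx1, a mitochondrial protein, fell (-0.48 ± 0.11, adjusted p = 0.00212), and Rnf125, a ubiquitin ligase acting on RIG-I, rose against DDIT3 (1.35 ± 0.35, adjusted p = 0.00641).

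In the authors' deposited table of ATF4 against GFP, 10 of the 37 members in the count table were higher at an adjusted p below 0.05, against 14.1% of 14141 genes, and 8 of these were also called higher with edgeR. In the authors' deposited table of DDIT3 against GFP, 0 of 36 members with an adjusted p were called, against 0.941% of 13392 genes called higher.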

How the data were processed

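RNA-seq was read from the authors' deposited files. Per the labels' protocols, RNA was extracted with a PureLink micro kit and libraries were built with SMART-Seq v4 and Nextera XT. Per the submitters' processing notes, STAR, featureCounts, DESeq2 and DESeq were used with the mm10 build; neither versions nor settings are given in the sources used here. In the deposited count table are whole-number read counts per gene, made by the authors, and a gene length column (an other unit), used for levels per kilobase. The authors' 2 deposited tables of their own comparisons hold, per the file headers, p-values, a test score, a mean signal and log2 fold changes with standard errors; they were used only where named.

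The sample titles gave the groups and the replicate numbers. Counts were tested with edgeR 4.0.16 in R 4.3.3 (robust quasi-likelihood fit, TMM, filterByExpr) with all 15 libraries in 1 model of the group alone, with 12 residual degrees of freedom and a common biological coefficient of variation of 19.6%. P-values were adjusted by Benjamini-Hochberg over 11814 genes; 11523 were removed by the filter, and the threshold was 0.05. The filter keeps a gene with enough counts in the libraries of 1 group, so that a gene may pass through the group where it is high. Libraries of a group differed beyond sampling noise in a chi-square comparison of genes of 20 or more counts, so none was a copy. Depth was 6217744 to 8317249 counts per library. For genes with few counts, such as Irf8 with 11 to 20 per GFP library, counting error was not separated from the spread between libraries. The kit does not mark strand.

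Whether equal replicate numbers mark paired libraries was checked from how each library deviated from its group mean, correlated across genes. All 5 exceeded 0.1 in DDIT3 and GFP (0.205 to 0.511) and in ATF4 and DDIT3 (0.135 to 0.497). Yet ATF4 replicate 1 correlated at 0.135 with DDIT3 replicate 1 and best with DDIT3 replicate 2. Replicates 4 and 5 read as male in DDIT3 and as female in GFP. In ATF4 and GFP 4 of 5 exceeded 0.1 (0.24 to 0.386) and replicate 2 did not (0.0783). The labels do not explain the numbers, so that pairing remains uncertain. The main fit therefore has no block, and values with and without the block are both given.

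The members and the lists of pathway and marker genes were chosen with earlier results of these data known, so no list is independent evidence. Values of every library are given for members that passed in any comparison with or without the replicate block and for the most abundant member per length, other members are given by range, and up to 3 pathway genes with the lowest p per list and comparison are named where called. Alternatives were DESeq2 1.42.0, RLE factors, no filter, a filter of at least 1 CPM in 5 libraries, the replicate block, a fit of only the 2 groups compared, a term for the sex read from sex-linked genes, and each library left out in turn. No motif search of promoters is reported here.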

Additional observations from a re-analysis of the deposited data

Results flagged for a closer look

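Of 102 sets of 5 libraries (34 members in 3 groups), 7 held a library whose gap to its nearest neighbour exceeded 0.71 of the whole range, where chance flags about 1 in 20 sets. ATF4 replicate 2 was low for 3 members: Ifit3 at 3.52 CPM, with the other ATF4 libraries at 8.38 to 9.82 CPM; Ifi44 at 2.05 CPM, with the others at 8.203 to 9.23 CPM; and Xaf1 at 4.10 CPM, with the others at 6.46 to 7.29 CPM. DDIT3 replicate 4 was high for 3 members: Isg15 at 3.64 CPM, with the other DDIT3 libraries at 0.555 to 1.33 CPM; Cmpk2 at 12.1 CPM, with the others at 6.03 to 7.75 CPM; and Parp14 at 14.2 CPM, with the others at 8.08 to 9.16 CPM. GFP replicate 1 was high for Oasl1, at 3.49 CPM, with the other GFP libraries at 2.09 to 2.24 CPM. The members share libraries, so these flags are not separate events, and no cause was tested.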

How the results depend on the processing

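Of the members called higher in ATF4 against GFP, 3 of 9 stayed called under all 22 alternatives and 6 lost the call under some, and in ATF4 against DDIT3 14 of 19 stayed called. With the replicate block, 16 members were called in ATF4 against GFP, all higher, and 37 pathway genes in place of 22; whether the numbers pair these 2 groups is uncertain, since 4 of the 5 pairs correlated at 0.24 to 0.386, each best with its own number, and replicate 2 at 0.0783, under the limit of 0.1. In DDIT3 against GFP the block called 1 member, higher, and 1 pathway gene, and DESeq2 called 1 pathway gene where edgeR called 0; these pathway genes were lower in DDIT3. Leaving out 1 library moved the members called in ATF4 against GFP between 3 and 14, in ATF4 against DDIT3 between 14 and 22, and the pathway genes called in DDIT3 against GFP between 0 and 1. With a sex term 6 members were called in ATF4 against GFP, and without a filter 6. The shares of all genes called with 1 library left out, a sex term or no filter were not worked out. RLE factors moved the median of all genes by -0.00897, -0.00627 and -0.00271 in the 3 comparisons. Signs of values near 0, none of them called, changed for Irf9 in ATF4 against GFP without a filter (-0.00481), for Trim25 with a sex term (0.00293) and for Ifit1 with the block (0.00453), both in DDIT3 against GFP. Leaving out 1 library changed the sign of further uncalled log2 fold changes, whose ranges were, in ATF4 against GFP, Irf9 (-0.113 to 0.154), Oasl1 (-0.298 to 0.09999), Parp9 (-0.128 to 0.0708); in DDIT3 against GFP, Irf7 (-0.366 to 0.0286), Irf9 (-0.0148 to 0.253), Stat2 (-0.248 to 0.119), Isg15 (-0.696 to 0.114), Usp18 (-0.0459 to 0.383), Trim25 (-0.129 to 0.109), Ifit1 (-0.193 to 0.293), Ifit2 (-0.213 to 0.125), Bst2 (-0.364 to 0.00258), Samhd1 (-0.15 to 0.0627), Adar (-0.186 to 0.0921); and in ATF4 against DDIT3, Irf3 (-0.0676 to 0.175), Usp18 (-0.0192 to 0.304), Dtx3l (-0.045 to 0.076). The cause of these changes was not tested. Depth limits Zbp1, Irf5 and Ifitm1, which averaged under 1 CPM in every group and were not tested.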
